A study of Mus musculus with 1 sample.

Results

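The transcripts of 10 genes of glucose uptake and glycolysis were followed across all 2055 cells of 1 single-cell RNA-seq library of mouse alveolar macrophages (AMs). The genes were chosen by name, and all 10 (Slc2a1, Hk2, Pfkl, Aldoa, Gapdh, Pgk1, Pgam1, Eno1, Pkm and Ldha) were among the 11918 genes listed. They are called the members below. The cells were sorted as CD45+CD11c+SiglecF+ from the lung of 1 adult mouse aged 8 to 12 weeks, labelled wild-type. The sample labels state that its FVB/NJ background had been crossed to C57BL/6 over 10 generations. The study describes the animal as Hdac3fl/fl, so both copies of the histone deacetylase 3 gene carried loxP sites without a Cre recombinase to delete them. The Cre line of the knockout that this mouse served as control for is given as Csf1rCre in the series description and as Cd11cCre in the study. For its cross of Hdac3fl/fl with Csf1rCre mice, the study states fewer than 10 generations. The knockout library was not analysed here, and the study used the wild-type cells to ask whether AMs are a mixed population. With 1 library there was no biological replicate, so all values below describe these cells, no test was run, and each interval is a 95% interval that covers counting error only.

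Glycolysis turns glucose into pyruvate in the cytosol and yields ATP without oxygen. Glucose enters through a transporter such as that encoded by Slc2a1 (GLUT1) and is trapped by hexokinase. Phosphofructokinase and aldolase prepare and split the sugar, and the later enzymes harvest energy until lactate dehydrogenase returns NAD+ by making lactate. Macrophages activated by inflammatory signals are known to raise this pathway, in part through the hypoxia-inducible factor HIF-1, and dividing cells draw on it for building blocks. Resident AMs live in air spaces with little glucose and much lipid, and are known for their reliance on oxidative metabolism.

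The members lie on 7 chromosomes. In GRCm38 (mm10) with the GENCODE M21 annotation, Slc2a1 spans chr4:119108711-119137983 and Eno1 chr4:150236721-150248879, both on the plus strand. Gapdh spans chr6:125161715-125166467 and Hk2 chr6:82725025-82774454, both on the minus strand. Ldha is at chr7:46841475-46855627 on the plus strand and Aldoa at chr7:126795234-126800751 on the minus strand. The others are Pkm at chr9:59656368-59679375 (plus), Pfkl at chr10:77986947-78010083 (minus), Pgam1 at chr19:41911923-41918660 (plus) and Pgk1 at chrX:106187100-106203699 (plus). All 10 are protein-coding genes.

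The 250 bases before the transcription start are shown for Gapdh, Aldoa, Eno1 and Ldha, the 4 members whose depth-corrected levels followed the sum of the other 9 members most closely. The sequences are from RefSeq on GRCm38.p6, written along the transcribed strand. Where a gene had more than 1 start, the start printed is the one with no annotated exon in its window and, among those, the most matches to the letters searched. Capitals mark ACGTG and GCGTG on either strand (CACGT and CACGC when read on the strand shown), the core letters of the hypoxia response element bound by HIF-1. ACGTG also lies within CACGTG, the E-box core, and each CACGTG counts as 2 matches because it reads the same on both strands.
Gapdh: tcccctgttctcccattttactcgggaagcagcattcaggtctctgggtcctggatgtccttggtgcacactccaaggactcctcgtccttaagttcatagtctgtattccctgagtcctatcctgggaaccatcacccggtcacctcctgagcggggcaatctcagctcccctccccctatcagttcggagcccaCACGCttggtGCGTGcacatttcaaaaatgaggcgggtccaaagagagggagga
Aldoa: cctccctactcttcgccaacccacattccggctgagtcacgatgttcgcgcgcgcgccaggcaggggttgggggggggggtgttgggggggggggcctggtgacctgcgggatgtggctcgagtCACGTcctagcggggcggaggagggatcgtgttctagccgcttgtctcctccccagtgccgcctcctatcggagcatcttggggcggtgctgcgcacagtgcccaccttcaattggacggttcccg
Eno1: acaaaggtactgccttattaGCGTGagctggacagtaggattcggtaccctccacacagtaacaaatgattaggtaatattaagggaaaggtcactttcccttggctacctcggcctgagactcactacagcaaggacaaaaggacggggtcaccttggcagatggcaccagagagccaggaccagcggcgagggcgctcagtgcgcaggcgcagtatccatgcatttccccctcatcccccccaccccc
Ldha: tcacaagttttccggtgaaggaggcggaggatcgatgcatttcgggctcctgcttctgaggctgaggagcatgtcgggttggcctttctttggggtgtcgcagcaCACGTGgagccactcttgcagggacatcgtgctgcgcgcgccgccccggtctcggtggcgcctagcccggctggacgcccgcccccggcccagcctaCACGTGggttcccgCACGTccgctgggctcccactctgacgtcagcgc

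These windows are chr6:125165774-125166023 for Gapdh, chr7:126799255-126799504 for Aldoa, chr4:150236458-150236707 for Eno1 and chr7:46845554-46845803 for Ldha. The Ldha window held 5 matches, 4 of them in 2 copies of CACGTG, against 2 matches for Gapdh and 1 each for Aldoa and Eno1. Among the other members, the single window of Pgam1 held 3 matches, those of Slc2a1, Hk2 and Pgk1 held 2 each, and that of Pfkl held 1. Pkm had 1 match in 1 of its 2 windows. Of the 16 member windows, 14 (87.5%) held a match, while 38.6% of all 32851 promoter windows of this length held 1 and 16.7% held 2 or more. Some windows of Aldoa overlap each other, as do some of Eno1, so the same match can count more than once. Each of the 10 members had a match in at least 1 of its windows, but the share of all genes with such a match was not computed. A match is a run of letters and was not measured as a bound site.

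The deposited values gave whole unique molecular identifiers (UMIs, each 1 captured transcript) in 100% of cases within 0.001 of a whole number, 7222978 in all. Cells held 1143 to 8603 UMIs with a median of 3278, and 528 to 2495 genes with a median of 1454. Of the 20 AM marker genes, 19 were listed, and Chil3 was found in 100% of cells at 135.9 UMIs per 10000 UMIs. The markers of other cell types were low in sum, at 0.0498 UMIs per 10000 for 3 dendritic cell genes, 0.490 for 3 neutrophil genes and 0.0180 for 2 endothelial and fibroblast genes. The 4 eosinophil markers were not listed. The lymphocyte list was at 1.42, of which Jchain gave 1.39 in 3.21% of cells. The monocyte and interstitial macrophage list was at 3.33, of which Fn1 gave 3.18. Epithelial genes stood at 3.54, of which Epcam gave 3.02, and Sftpc, a surfactant gene of alveolar epithelium that AMs are not known to transcribe, was found in 6.86% of cells at 0.238. The sums of these lists correlated with the summed members between -0.043 and 0.029 after correction for depth.

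The members together made up 0.185% of all UMIs, and their levels spanned from 0.0775 to 5.82 UMIs per 10000. The summed level was 18.5 UMIs per 10000 (interval 18.2 to 18.8, 13336 UMIs). A cell held a median of 6 member UMIs and at most 23, and 46 cells held none. The median cell showed 4 of the 10 members, and the highest number in any cell was 8. Gapdh, Aldoa, Ldha and Pkm supplied 80.4% of the member UMIs. The assay tags 1 end of each transcript, so UMIs carry no length term, but capture may differ between genes, and an order between genes is an order of captured UMIs.

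Slc2a1 and Pfkl, at the start of the pathway, were the least captured members. Slc2a1, the main basal glucose transporter of many cells, had 56 UMIs, a level of 0.0775 (0.0586 to 0.101) and was found in 2.63% of cells (1.98 to 3.41). Hk2, the inducible hexokinase that commits glucose to the cell, had 432 UMIs, a level of 0.598 (0.543 to 0.657) and was found in 17.9% of cells (16.2 to 19.6). Pfkl, the liver-type phosphofructokinase of the committing step, had 71 UMIs, a level of 0.0983 (0.0768 to 0.124) and was found in 3.36% of cells (2.62 to 4.23). Hk2 therefore stood above the other 2 upstream members, whose intervals overlapped each other. The shares for Slc2a1 and Pfkl were lower than the 6.86% of Sftpc in the same cells. Free RNA was not measured for each gene, so the share of Sftpc sets no floor for them, and they could not be told apart from free RNA.

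The middle of the pathway was captured best. Aldoa, which splits the 6-carbon sugar, had 3160 UMIs, a level of 4.37 (4.22 to 4.53) and was found in 72.2% of cells (70.2 to 74.1). Gapdh, which makes NADH from the split sugar and is often used as a reference gene, had 4206 UMIs, a level of 5.82 (5.65 to 6.00) and was found in 80.6% of cells (78.9 to 82.3). These were the members with the highest levels, with ranks 370 and 270 of the 11918 genes by UMIs. Pgk1, the next enzyme and the first to make ATP, had 193 UMIs, a level of 0.267 (0.231 to 0.308) and was found in 8.76% of cells (7.57 to 10.1). Pgk1 was thus far lower than its neighbours on both sides, since Pgam1, the mutase that follows it, had 1068 UMIs, a level of 1.48 (1.39 to 1.57) and a share of 38.9% (36.8 to 41.1).

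The last steps lay between these extremes. Eno1, the enolase, had 789 UMIs, a level of 1.09 (1.02 to 1.17) and was found in 29.3% of cells (27.3 to 31.3). Pkm, which makes pyruvate and the second ATP yield, had 1215 UMIs, a level of 1.68 (1.59 to 1.78) and was found in 43.2% of cells (41.0 to 45.3). Ldha, which turns pyruvate into lactate, had 2146 UMIs, a level of 2.97 (2.85 to 3.10) and was found in 60.3% of cells (58.2 to 62.5). By level the order was therefore Gapdh, Aldoa, Ldha, Pkm, Pgam1, Eno1, Hk2, Pgk1, Pfkl and Slc2a1, and in this order Pfkl and Slc2a1 were the only neighbours with overlapping intervals.

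**Figure D1:**
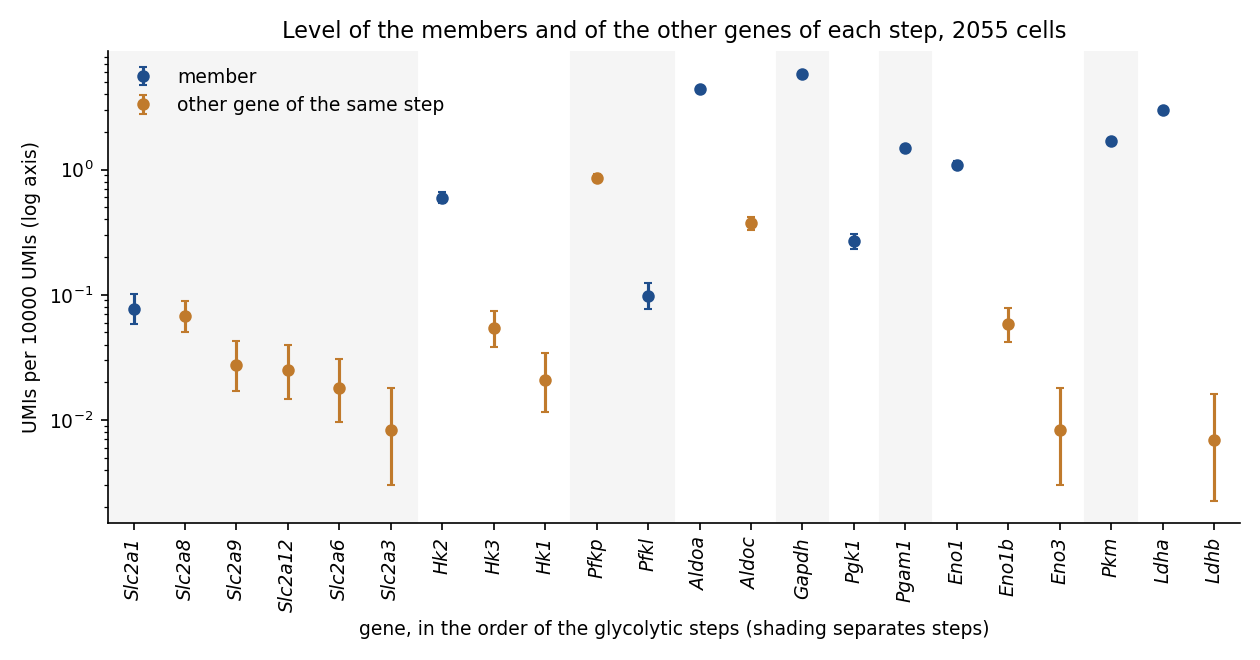
Level of each member (blue) and of the other genes encoding the same step (orange) in UMIs per 10000 UMIs on a log axis over all 2055 cells, in the order of the pathway, with 95% counting intervals. Members range from 0.0775 (Slc2a1) to 5.82 (Gapdh), and Pfkp at 0.860 is the only other gene above the member of its own step.

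Most cells that held a member held few copies of it. Gapdh reached 3 or more UMIs in 32.5% of cells and Aldoa in 21.9%, Ldha in 11.6%, Pkm in 3.07%, and the other members in fewer than these. The highest count in any cell was 13 for Gapdh and 11 for Aldoa, against 3 for Hk2 and 2 for Slc2a1 and Pfkl. Detection therefore followed depth. After each cell was thinned to 2000 UMIs, which kept 1756 cells and left out 299 shallower ones, Gapdh was found in 67.3% of cells, Aldoa in 57.6%, Ldha in 44.8%, Pkm in 29.7%, Pgam1 in 26.3%, Eno1 in 19.4%, Hk2 in 11.3% and Pgk1 in 5.13%. The order of these 8 members by share stayed as before, and Slc2a1 and Pfkl came out equal at 1.77%. Levels moved less with depth in comparison. Gapdh was at 5.28 in the 25% of cells with the fewest UMIs and at 5.81 in the 25% with the most, Aldoa at 3.89 and 4.25, Ldha at 2.96 and 3.05, and Hk2 at 0.711 and 0.608.

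**Figure D2:**
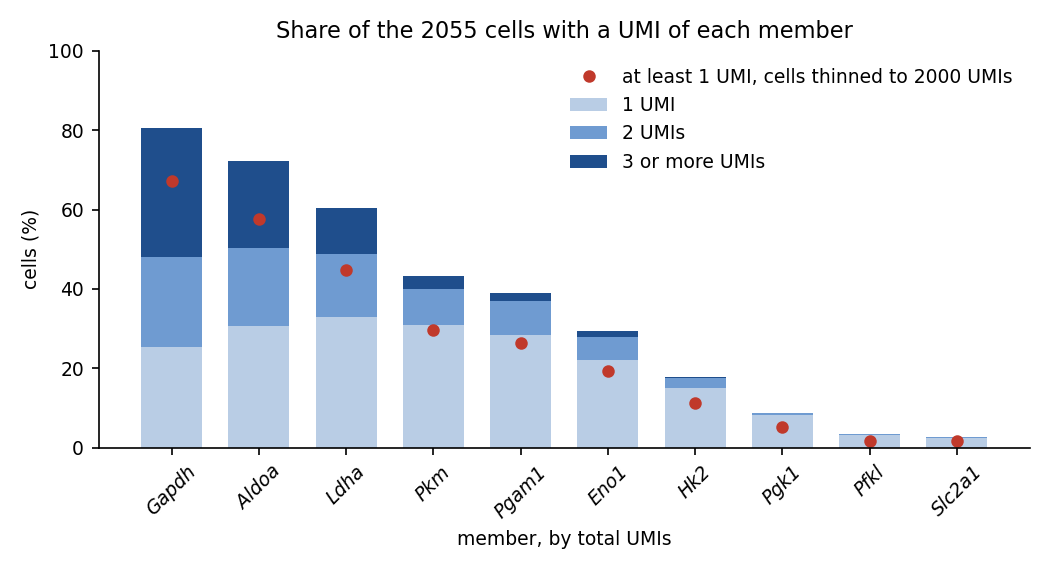
Share of the 2055 cells with 1, 2 or at least 3 UMIs of each member (stacked bars) and the share with at least 1 UMI after each cell was thinned to 2000 UMIs (red points, 1756 cells). Gapdh is found in 80.6% of cells before and 67.3% after thinning, and single UMIs make up most of the bar for every member except Gapdh and Aldoa.

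In 5 of the 7 steps that several genes can encode, the member held most of the UMIs. Among hexokinases, Hk2 held 88.9% of 486 UMIs (interval 85.8 to 91.5), and Hk3 and Hk1 held 8.02% and 3.09%. Aldoa held 92.2% of the 3429 aldolase UMIs (91.2 to 93.0), with Aldoc supplying the rest. Ldha held 99.8% of 2151 lactate dehydrogenase UMIs, since Ldhb, the heart-type subunit, had 5. All 1068 phosphoglycerate mutase UMIs were of Pgam1, and Eno1 held 94.3% of 837 enolase UMIs beside 5.02% for Eno1b. The exception was phosphofructokinase. Pfkl, the member, held 10.3% of 692 UMIs (8.10 to 12.8), and the platelet-type gene Pfkp held 89.7%, was found in 25.1% of cells and had a level of 0.860. The muscle-type gene Pfkm was not listed. Glucose transporters were sparse altogether, with 162 UMIs over 6 listed Slc2a genes. Slc2a1 held 34.6% of them (27.3 to 42.4) and Slc2a8, an intracellular transporter, 30.2% (23.3 to 37.9), so these 2 could not be ranked. Hk3, Hk1 and Slc2a8 had 39, 15 and 49 UMIs, and they could not be told apart from free RNA either.

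Part of these levels depends on which transcripts could be counted as unique. Of the sequences of 98 bases within the last 300 bases of the coding transcripts of Gapdh, 69.1% also occurred in transcripts of other genes, 62 genes in all, and for Eno1 84.5% occurred in Eno1b. For Ldha and Pkm the shares were 2.46% and 1.32%, and for the other 6 members they were 0. If reads that matched several genes were not counted, the levels of Gapdh and Eno1 would be understated, and the split between Eno1 and Eno1b is uncertain.

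Members differed in how much they varied between cells once counting was allowed for. Spread is given as the coefficient of variation (CV) of the level beyond the Poisson variance expected from each cell's UMIs. For the 5 members with at least 1000 UMIs it was 0.337 for Aldoa, 0.292 for Gapdh, 0.197 for Ldha, 0.184 for Pkm and 0.151 for Pgam1, beside 0.295 from the median excess variance of all 1159 genes of that depth. Aldoa was thus more spread than 62.1% of those genes, and Pgam1 more than 10.5%. Eno1 and Hk2, with fewer UMIs, gave 0.522 and 0.604, and the sum of the members gave 0.214. The values for Pgk1, Pfkl and Slc2a1 rest on too few cells with a second UMI to be read.

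Correlations between pairs of members were small once depth was removed. Over the 45 pairs, the Pearson correlation (r) across cells of the UMIs as counted had a median of 0.0567 and reached 0.269 for Aldoa and Gapdh. When each UMI count was replaced by its residual from the count expected at the depth of the cell, the median fell to 0.0114, with a range from -0.045 (Hk2 and Pgam1) to 0.075 (Aldoa and Eno1). The residual r of Aldoa and Gapdh was 0.069. After depth was removed, 28 of the 45 pairs (62.2%) were above 0, none reached 0.1 and 6 (13.3%) reached 0.05. Among the 21 pairs of the 7 members found in at least 10% of cells, 13 (61.9%) were above 0, none reached 0.1 and 3 (14.3%) reached 0.05. Over all pairs of the 4023 genes found in at least 10% of cells, 50.1% were above 0, 0.167% reached 0.1 and 2.79% reached 0.05. Over pairs of genes with at least 1000 UMIs, the shares were 49.9%, 1.46% and 8.09%. The medians of both backgrounds were at or near 0, at 6.8e-05 and -6.2e-05. The 10 pairs among the 5 members with at least 1000 UMIs had a median of 0.039, and 1 of them, Aldoa with Gapdh, reached 0.05. With the counting variance taken out, the estimated r was 0.53 for Aldoa with Gapdh, 0.60 for Gapdh with Ldha and 0.38 for Aldoa with Ldha, but over these 10 pairs it ran from -0.33 to 1.20, beyond what an r can be, and the single estimates are not read further.

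**Figure D3:**
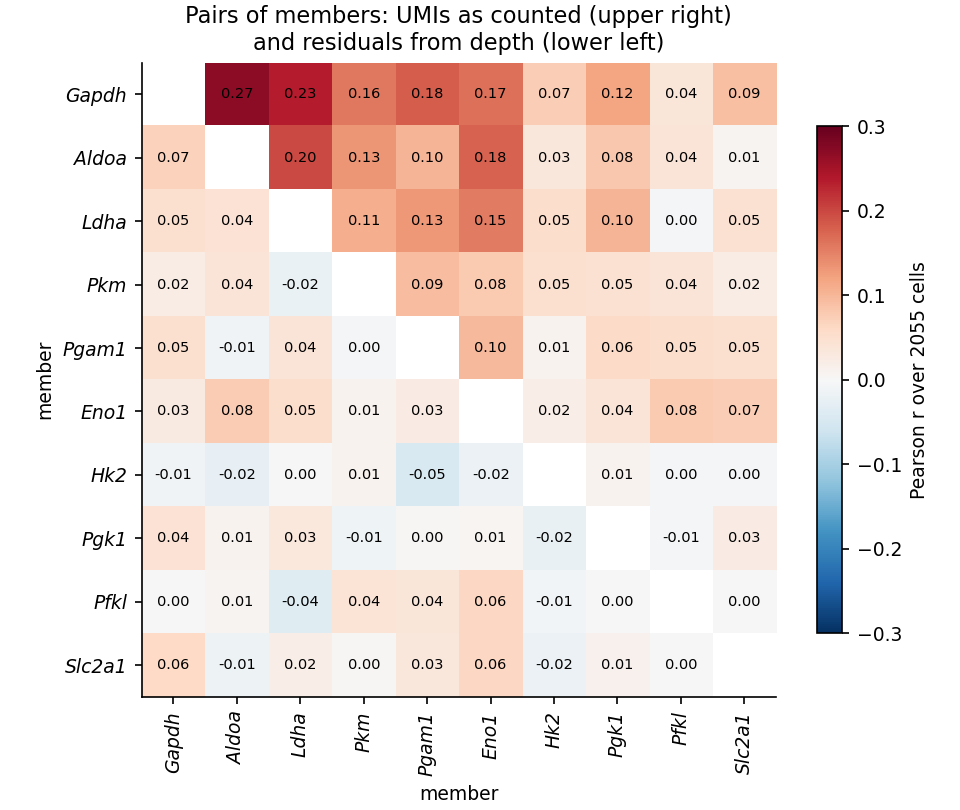
Pearson r over the 2055 cells for each pair of members, ordered by total UMIs. Values for UMIs as counted (upper right) reach 0.269 for Gapdh and Aldoa, while values for residuals from the depth of the cell (lower left) lie between -0.045 and 0.075.

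The 6 pairs at 0.05 or more were Aldoa with Eno1, Aldoa with Gapdh, Pfkl with Eno1, Slc2a1 with Eno1, Slc2a1 with Gapdh, and Eno1 with Ldha. Eno1 was in 4 of them. Hk2 was in none, and 8 of its 9 pairs were below 0, while 50.1% of all pairs of genes found in at least 10% of cells were above 0. The 3 pairs with Pfkl or Slc2a1 rest on 71 and 56 UMIs. In cells thinned to 2000 UMIs the r of Aldoa with Eno1 was 0.048, that of Aldoa with Gapdh 0.054 and that of Eno1 with Ldha 0.062. For the pairs with Pfkl or Slc2a1 it was 0.058 (Slc2a1 with Eno1), 0.031 (Slc2a1 with Gapdh) and 0.027 (Pfkl with Eno1). The cells share 1 library and the counts are sparse, so correlations of this size are descriptions only.

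Each member was also set against the summed UMIs of the other 9. Gapdh had the highest residual r at 0.10, followed by Aldoa at 0.087, Eno1 at 0.086, Ldha at 0.071, Slc2a1 at 0.054, Pgam1 at 0.039, Pgk1 at 0.037, Pkm at 0.029 and Pfkl at 0.023. Hk2 was the only member below 0, at -0.034. With the limit at 0.1, 1 of the 10 members (Gapdh) reached it, and 21 of the 4016 other genes found in at least 10% of cells did so against the sum of all 10, or 0.523%. The r of Gapdh lay on the limit, and it fell to 0.075 in thinned cells. Set against the same 4016 genes, Gapdh was above 99.5% of them, Aldoa and Eno1 each above 99.2%, Ldha above 98.7%, Slc2a1 above 96.6%, Pgam1 above 91.1%, Pgk1 above 90.2%, Pkm above 85.5% and Pfkl above 81.6%. Hk2 was above 13.7%. Among genes found in at least 50% of cells, 2.79% reached 0.1, so these ranks depend on the depth of the genes compared. Slc2a1, Pgk1 and Pfkl were themselves found in fewer than 10% of cells.

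The genes whose depth-corrected level was most like the summed members were not glycolytic. Ftl1 (r = 0.213) and Fth1 (0.150) encode the light and heavy chains of ferritin, the iron store. Lgals3 (0.174) encodes galectin-3, Pfn1 (0.172) the actin-binding profilin, Cd68 (0.157) a macrophage lysosomal glycoprotein and Ctsz (0.144) a lysosomal protease. Eif5a (0.140) encodes a translation factor, H2-D1 (0.135) an MHC class I chain and Car4 (0.133) a membrane carbonic anhydrase that marks AMs, and the tenth was Gm10116 (0.134). All 10 were found in 54.8% of cells or more, with Cd68 the lowest and Ftl1 in 100%, and so were deeper than most members.

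At the other end were Hmgb2 (r = -0.135), a chromatin protein of dividing cells and part of the cycle list used below, the ribosomal protein genes Rpl37a (-0.129) and Rps28 (-0.120), the mitochondrial gene mt-Nd3 (-0.115) and the histone variant gene H2afv (-0.109). Single members had partners of similar kinds. Aldoa was most like Ftl1 (0.179) and Lgals3 (0.154), Gapdh most like Ftl1 (0.165) and Eif5a (0.154), Eno1 most like Cd68 (0.141) and Cd9 (0.115), Pkm most like Psap (0.113) and Ifitm2 (0.104), and Ldha most like Car4 (0.093) and Arpc1b (0.086). Hk2 stood apart, with Tnfaip3 (0.110), an inhibitor of NF-κB signalling, and Tgfbi (0.104) as the genes most like it. The genes most like the remaining members had r of 0.086 and 0.079 (Wls and Tmed3 with Pgam1), 0.108 and 0.095 (Mettl9 and Ccrl2 with Slc2a1), 0.088 and 0.086 (Ehbp1l1 and Rnase6 with Pfkl) and 0.082 and 0.078 (Ccdc124 and Glod4 with Pgk1).

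Of 27 other glycolysis genes and isozymes, 17 were listed, and together they reached 4.07 UMIs per 10000. The best captured were Gpi1, the isomerase between hexokinase and phosphofructokinase, at 0.874, Pfkp at 0.860, and Tpi1, the triose isomerase, at 0.687. Each was found in 21.3% to 25.5% of cells. Their summed UMIs had an r of 0.016 with the members, and none of the 17 reached 0.1, Eno1b being the highest at 0.079. Transport genes outside Slc2a1 stood at 2.47, of which Bsg, the chaperone of lactate carriers, gave 1.94, and the lactate carriers Slc16a3 and Slc16a1 gave 0.163 and 0.148. Transport had an r of 0.068.

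Of the neighbouring pathways, the pentose phosphate pathway was captured at a lower summed level than the members and the others at higher ones. The 7 genes of the pentose phosphate pathway, which branches from glycolysis to make NADPH, reached 12.0 and had an r of 0.093 with the members, led by Taldo1 (4.85), Tkt (2.35) and Pgls (1.79). The 30 genes of pyruvate entry and the tricarboxylic acid cycle reached 23.7 with an r of 0.055, led by the pyruvate carrier subunits Mpc1 (4.21) and Mpc2 (3.61) and by Mdh2 (1.62). Nuclear respiratory chain genes reached 247.3 with an r of -0.011, led by Cox4i1 (16.8), Atp5l (16.6) and Cox6b1 (10.6). Mitochondrially encoded chain genes reached 369.7 with an r of -0.058, led by mt-Atp6 (83.0), mt-Co1 (74.0) and mt-Co3 (69.4). These sums depend on list size, with 10 members against 30 tricarboxylic acid cycle genes, so they do not rank the pathways.

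Of 23 HIF-1 target genes outside glycolysis, 19 were listed at 30.9 UMIs per 10000, with an r of 0.022 with the members. The most captured were Plin2 (9.83) and Hilpda (7.21), which coat or regulate lipid droplets, and Bnip3l (4.47), a mitophagy receptor, so lipid droplet genes led the list. Capture differed widely within the list. Vegfa, Egln3, Ndrg1, Ankrd37 and Ddit4 were at 0.190, 0.00554, 0.0180, 0.0152 and 0.00277, and were found in at most 5.35% of cells. Mif, Higd1a and Bhlhe40, also hypoxia targets of this list, each had at least 1000 UMIs. In the 103 cells (5%) highest in the list, the summed members were 1.07 times the level of the other cells (0.997 to 1.15). This class was weakly set apart, with 122 cells within 0.5 residual units of its limit and a median of 21 list UMIs against 9. Among glucose sensors and regulators, 13 genes at 5.17 in sum had an r of -0.031. Txnip, which limits glucose uptake, was at 1.36, Hif1a at 0.658 and Akt1 at 0.594.

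The members were lower, relative to all UMIs, in cells with cell cycle transcripts, and Aldoa carried most of that difference. The cycle core list held 27 listed genes led by Hmgb2 (3.42 UMIs per 10000), Stmn1 (2.81) and Cks1b (1.15), and the summed members had an r of -0.120 with its sum. The r was -0.072 with an S phase list led by Pcna (1.65), Slbp (1.13) and Usp1 (0.550) and -0.123 with a G2/M list led by Cks2 (2.41), Smc4 (0.761) and Birc5 (0.518). The 103 cells with the highest cycle residual (5% of cells, a range of a score and not a cell type) were then set against the other 1952. They had a median of 47 cycle core UMIs against 1, and 5 cells lay within 0.5 residual units of the limit. These cells were also deeper, with a median of 4293 UMIs against 3233.

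The summed members stood at 15.1 UMIs per 10000 in the cycle core class and 18.7 in the other cells, a ratio of 0.807 (0.747 to 0.871). Aldoa stood at 2.64 and 4.49 with a ratio of 0.587 (0.486 to 0.703). Ldha stood at 2.40 and 3.01 with a ratio of 0.797 (0.653 to 0.965), and Gapdh at 5.02 and 5.88 with a ratio of 0.853 (0.745 to 0.974). These were the 3 members whose interval lay below 1, and none lay above. Pgam1 went the other way at 1.72 and 1.46, with a ratio of 1.17 (0.922 to 1.47) whose interval included 1. Eno1 (0.959), Hk2 (0.927), Pgk1 (0.875) and Pkm (0.792) also had intervals that included 1, as did Slc2a1 (1.11) and Pfkl (0.420) with 4 and 2 UMIs in the class. A ratio of 0.8 or less was found for 4 members, and a level at least 25% above that of the other cells for none. Over all genes found in at least 10% of cells and outside the list, 23.0% were at 0.8 or less and 21.4% at least 25% above, and over those with at least 1000 UMIs 23.7% and 11.4%. The median ratio of the deeper genes was 0.940, so a ratio somewhat below 1 was common in these cells. Aldoa lay below all but 2.77% of those genes, and Gapdh below all but 33.1%.

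**Figure D4:**
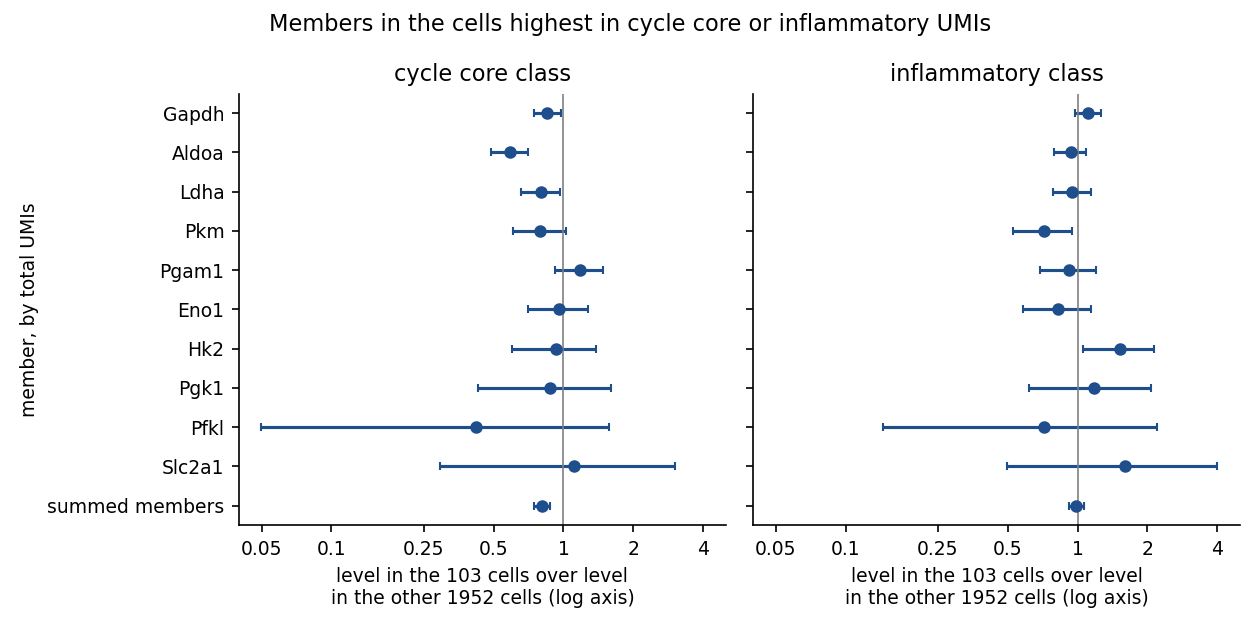
Ratio of the pooled level of each member, and of their sum, in the 103 cells highest in cycle core UMIs (left) or inflammatory UMIs (right) to that in the other 1952 cells, on a log axis with exact 95% counting intervals. Aldoa at 0.587 is the member farthest below 1 in the cycle core class apart from Pfkl, which has 2 UMIs there, and Hk2 at 1.53 lies above 1 in the inflammatory class.

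In UMIs per cell, not relative to depth, the difference was small or turned. Cells of the cycle core class held 6.83 member UMIs on average and the other cells 6.47. Aldoa was lower per cell too, at 1.19 and 1.56, and was found in 65.0% of cycle core cells and 72.5% of the others, although the former were deeper. Gapdh was at 2.27 and 2.03 per cell, Ldha at 1.09 and 1.04 and Pgam1 at 0.777 and 0.506. Fewer transcripts of a gene and more transcripts of all others in a cell cannot be told apart by the share alone.

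Along the whole range of cycle core residuals, Aldoa went from 4.63 UMIs per 10000 in the lowest 50% of cells to 4.47 and 4.24 in the next 2 bins, 3.87 in the 90 to 95% bin, and 2.62 and 2.60 in the 2 highest bins of 51 cells each. Its level was therefore lower mainly in the top 5%. Gapdh was at 5.80 in the lowest 50% and at 4.44 in the highest bin. The r of Aldoa with single cycle core genes found in at least 10% of cells was -0.129 for Stmn1 and -0.115 for Hmgb2. These were the 2 of 40 member and gene pairs at -0.1 or less, beside 0.0611% of all pairs of genes found in at least 10% of cells. Aldoa, Stmn1 and Hmgb2 each had at least 1000 UMIs, and the share over pairs of such genes was not computed. Aldoa was low in the S phase class (0.687, 0.577 to 0.813) and in the G2/M class (0.583, 0.481 to 0.700), which shared 57 of their 103 cells. Pgam1 was at 1.23 (0.972 to 1.54) in the S phase class and 0.965 (0.739 to 1.24) in the G2/M class. When cells were thinned to 2000 UMIs before the class was formed, the ratio of Aldoa was 0.764 (0.582 to 0.987) and that of the summed members 0.820 (0.723 to 0.925). The intervals of Gapdh and Ldha were less firm. That of Gapdh included 1 after thinning (0.854, 0.682 to 1.06) and without the 5% of cells with the most UMIs (0.882, 0.765 to 1.01). That of Ldha included 1 without those cells (0.820, 0.665 to 1.00) and without cells above 5% mitochondrial UMIs (0.843, 0.682 to 1.03). It lay below 1 for Gapdh without cells above 5% mitochondrial UMIs (0.811, 0.698 to 0.938) and for Ldha after thinning (0.675, 0.470 to 0.941).

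**Figure D5:**
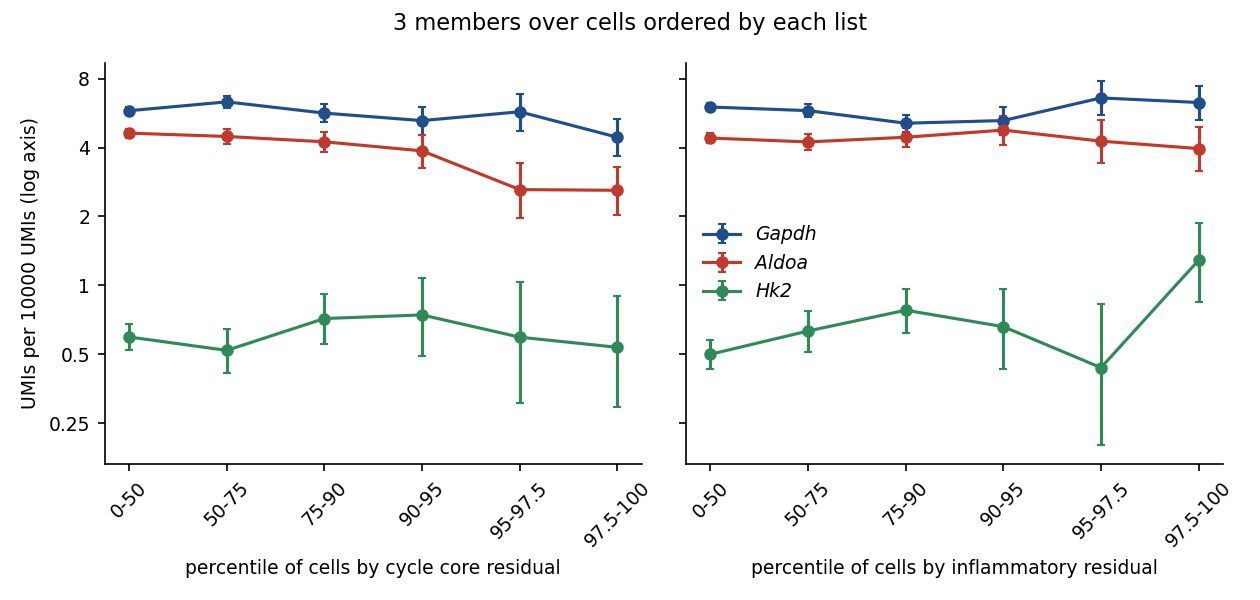
Level of Gapdh, Aldoa and Hk2 in UMIs per 10000 UMIs (log axis, 95% counting intervals) in 6 bins of cells ordered by the residual of the cycle core list (left) or of the inflammatory list (right). Aldoa drops to 2.62 and 2.60 in the 2 highest cycle core bins, and Hk2 reaches 1.29 only in the highest inflammatory bin.

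The summed members did not follow inflammatory transcripts, and of the single members Hk2 had the highest r with the sum of the inflammatory list, at 0.077. The 16 inflammatory genes were all listed, at 30.7 UMIs per 10000, led by the chemokine genes Cxcl2 (12.5) and Ccl3 (2.99) and by Nfkbia (3.92), the inhibitor of NF-κB. Tissue digestion and sorting are known to induce some of these genes, and their share in these cells was not tested. The r of the summed members was -0.022 with the inflammatory sum and -0.085 with a list of immediate-early genes led by Fos (8.31), Dusp1 (8.15) and Junb (7.54). The 103 cells highest in inflammatory residual had a median of 62 inflammatory UMIs against 5 in the others, a median depth of 3958 against 3247 UMIs, and 13 cells within 0.5 residual units of the limit. They shared 7 cells with the cycle core class.

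In this class the summed members stood at 18.2 UMIs per 10000 and in the other cells at 18.5, a ratio of 0.987 (0.916 to 1.06). Hk2 stood at 0.887 and 0.580 with a ratio of 1.53 (1.06 to 2.14) from 37 UMIs in the class, and was found in 26.2% and 17.4% of cells. Pkm went the other way at 1.22 and 1.71, with a ratio of 0.715 (0.529 to 0.946). The interval of Hk2 stayed above 1 after thinning (1.80, 1.06 to 2.89) and without the 5% of cells with the most UMIs (1.65, 1.12 to 2.35), while that of Pkm included 1 in both (0.775, 0.493 to 1.16, and 0.778, 0.570 to 1.04). Without cells above 5% mitochondrial UMIs, that of Pkm lay below 1 (0.670, 0.476 to 0.919) and that of Hk2 above it (1.56, 1.05 to 2.24). The intervals of the other 8 members included 1, with Gapdh at 1.11 (0.977 to 1.26, and 1.03 to 1.49 after thinning), Ldha at 0.949, Aldoa at 0.933, Eno1 at 0.825 and Slc2a1 at 1.60 (0.498 to 3.98, 5 UMIs). A level at least 25% above that of the other cells was found for 2 members, Hk2 and Slc2a1, and a ratio of 0.8 or less for 2, Pkm and Pfkl. Over the genes found in at least 10% of cells, 9.35% were at least 25% above and 23.7% at 0.8 or less, and over those with at least 1000 UMIs 7.11% and 10.2%. Hk2 lay above 96.4% of the deeper genes and Pkm above 2.95% of them, although Hk2 has fewer UMIs than any of those genes.

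The level of Hk2 did not climb in steps over the inflammatory range. It was 0.499 in the 50% of cells with the lowest inflammatory residual, 0.631, 0.778 and 0.660 in the next 3 bins, 0.436 (0.200 to 0.829) in the second highest bin and 1.29 (0.849 to 1.87) in the highest bin, where 51 cells held 27 UMIs. With the class set at the highest 2.5% of cells its ratio was 2.23, and at the highest 10% it was 1.32. Against single inflammatory genes, Hk2 had an r of 0.110 with Tnfaip3, 0.090 with Nlrp3, which encodes an inflammasome sensor, and 0.075 with both Nfkbia and Nfkbiz. Slc2a1, with 56 UMIs, had a higher r than Hk2 with Nfkbiz (0.084) and with Il1b (0.055 against 0.050). The pair of Hk2 and Tnfaip3 was the 1 of 110 member and gene pairs that reached 0.1 (0.909%). The share was 0.167% over all pairs of genes found in at least 10% of cells. Over pairs of genes with at least 1000 UMIs, a depth that Tnfaip3 reached and Hk2 did not, it was 1.46%. With the inflammatory and immediate-early sums, Hk2 had an r of 0.077 and 0.085, while Aldoa had -0.016 and -0.077 and Eno1 -0.045 and -0.085. In the 103 cells highest in immediate-early transcripts, 42 of which were also in the inflammatory class, Eno1 had a ratio of 0.635 (0.419 to 0.925) and Hk2 1.33 (0.895 to 1.92). For this immediate-early class, 54 cells lay within 0.5 residual units of the limit.

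Gapdh was lower and Pgk1 higher in cells with a high share of mitochondrial UMIs. The 384 cells (18.7%) with more than 5% of UMIs on the 13 mitochondrial genes held a summed member level of 17.4 against 18.7 in the other 1671 cells, a ratio of 0.934 (0.891 to 0.980). The median ratio of all genes with at least 1000 UMIs was 0.932 in the same cells. Gapdh was at 4.88 and 6.00 (ratio 0.812, 0.742 to 0.888), while Pgk1 was at 0.362 and 0.249 (1.46, 1.01 to 2.06) from 42 UMIs. These cells were shallower, with a median of 2684.5 against 3403 UMIs, and the part of RNA quality in these differences was not tested. Without them, the ratio of the summed members was 0.786 in the cycle core class and 0.997 in the inflammatory class, and that of Hk2 in the inflammatory class was 1.56.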

How the data were processed

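The library was made with the 10x Genomics Chromium 3′ kit and 5000 sorted cells were loaded. The study names Cell Ranger for alignment to mm10 and counting of UMIs, and Seurat for the later steps. The values deposited by the authors are UMIs scaled to 10000 per cell, with 1 added, on a natural log scale. The authors also deposited a scaled score per gene and cell, no higher than 10, which was used only as an alternative. The stated filter of 300 to 2500 genes per cell, whose upper limit was the study's step against doublets, held for all cells deposited, and no doublet caller was run here. The stated limit of 5% mitochondrial UMIs was exceeded by 384 cells, which were kept.

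Whole UMIs were recovered by dividing each back-transformed value by the smallest one of its cell. A level is the UMIs of a gene per 10000 UMIs pooled over cells, with an exact Poisson interval. Shares have exact binomial (Clopper-Pearson) intervals and ratios exact conditional ones, all at 95%. Correlations are Pearson r over cells of Poisson residuals, that is the UMIs minus those expected at the cell's depth, over the root of the expected value. Classes are the 5% of cells with the highest residual of a list's summed UMIs. Levels, excess variance and ratios were tested on simulated data. With 1 sample no test was possible. All 10 members are named, with the 3 best captured genes of each other pathway list, the 10 genes most and 5 genes least like the summed members, and the 2 genes most like each member. The members and lists were chosen with earlier results of these data known. Other genes named were chosen after their values were seen. Python 3.11.15, numpy 2.4.6 and scipy 1.17.1 were used. Positions are from GENCODE M21 and promoters from RefSeq, where all 10 members were matched by symbol.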

Additional observations from a re-analysis of the deposited data

How the results depend on the processing

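Of 46 alternative values for the main results, 41 stayed within the counting interval of the main value, or within 0.05 for a correlation. Across its alternatives the summed level of the members ran from 18.3 to 18.7 UMIs per 10000, and the median r of the 45 pairs from 0.0061 to 0.025, with 0.039 for the 5 members with at least 1000 UMIs, a set added after the data were seen. The number of members with an r of at least 0.1 against the other 9 was 1, and it was 0 with cells thinned to 2000 UMIs, with the deposited scores and with the mean of the residuals of the members, and the cause was not tested. The ratio of the summed members in the cycle core class ran from 0.741, with the class set at the highest 2.5% of cells, to 0.864, as the median of the 10 member ratios, and in the inflammatory class from 0.941 to 1.00. The r with the cycle core list weakened to -0.072 in thinned cells and stayed below 0 in each alternative. The r with the inflammatory list was -0.0017 in thinned cells and -0.085 when the immediate-early list took its place. For single members and gene shares, 150 of 170 alternative values stayed within the same limits, and no ratio whose interval lay apart from 1 crossed it. Of the other 20, 11 were shares of cells, and the ratio of Aldoa in the cycle core class was 0.764 after thinning and 0.703 with the class at 10% of cells. The ratio of Hk2 in the inflammatory class was 2.23 with the class at 2.5% of cells. After thinning, Pgk1 stood at 0.417 and Pfkl at 0 in the cycle core class, Eno1 at 0.567 in the inflammatory class. The share of other genes reaching an r of 0.1 was 0.226% or 2.79% with genes found in at least 1% or 50% of cells. No paired analysis was possible because there is 1 sample, and leaving out a replicate was not possible for the same reason. At this depth a member with under 100 UMIs gives ratio intervals too wide to show a difference, and no correlation near 0 shows that levels are unlinked.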
